A study of Mus musculus with 4 samples.

Results

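Transcription regulators that set B cell identity and hold B cells at rest were examined in LPS-stimulated splenic B cells with and without IκB-ζ. The 10 genes were taken by symbol from the deposited tables of 30041 genes: the E proteins Tcf3 and Tcf4, their inhibitors Id2 and Id3, the lineage factor Ebf1, the Ikaros family members Ikzf1 and Ikzf3, and Foxo1, Foxp1 and Klf2. All 10 were found in all 4 samples. The study asked how gene expression changes when Nfkbiz, the gene that encodes IκB-ζ, is deleted in B cells. B cells were purified from spleens of C57BL/6 mice by removing cells with CD43, CD4 or Ter-119 on their surface and cultured with LPS, a bacterial cell wall component that activates B cells through TLR4, for 72 h. The LPS concentration is 20 μg/ml in the study's methods and 20 mg/ml in the sample labels. The 2 control samples came from Nfkbiz fl/Δ mice and the 2 cKO samples from Nfkbiz fl/Δ Mb1 cre/+ mice, so both groups carried 1 floxed and 1 deleted allele, and the cKO mice also carried Cre under the Cd79a (Mb1) promoter. Nothing in the sources states how many mice each sample holds or whether the samples came from separate mice, so the p-values measure only the spread between these samples.

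E proteins are basic helix-loop-helix factors that bind DNA as dimers at E-box sites and drive the expression of B-lineage genes, including those for the antigen receptor. ID proteins have the helix-loop-helix but no DNA-binding region, and they hold E proteins in dimers that cannot bind DNA. EBF1 acts with E proteins and PAX5 to set up and keep the B cell program, whereas Ikaros and Aiolos, the products of Ikzf1 and Ikzf3, are zinc finger factors of lymphoid cells. FOXO1, FOXP1 and KLF2 are associated with resting, recirculating lymphocytes, and FOXO1 is held out of the nucleus by PI3K-AKT signaling upon activation.

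Id2 was the one gene of the 10 that was called and Id3 is the other ID gene of these cells, so the DNA just upstream of each is shown. The windows are the 250 bases before the RefSeq transcription start on GRCm38.p6, a later build than the mm9 assembly to which the reads were mapped. They lie at chr12:25096093-25096342 on the minus strand for Id2 and at chr4:136143572-136143821 on the plus strand for Id3, and read 5′ to 3′ along the gene. Capitals mark CANNTG, the general E-box, and CCACCC, a core bound by KLF factors, or its reverse complement GGGTGG.
Id2: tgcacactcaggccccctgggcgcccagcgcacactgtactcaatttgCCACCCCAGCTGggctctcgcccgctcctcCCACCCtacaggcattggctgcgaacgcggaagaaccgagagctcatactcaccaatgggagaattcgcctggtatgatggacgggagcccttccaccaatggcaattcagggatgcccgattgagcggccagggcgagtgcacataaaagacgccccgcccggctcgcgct
Id3: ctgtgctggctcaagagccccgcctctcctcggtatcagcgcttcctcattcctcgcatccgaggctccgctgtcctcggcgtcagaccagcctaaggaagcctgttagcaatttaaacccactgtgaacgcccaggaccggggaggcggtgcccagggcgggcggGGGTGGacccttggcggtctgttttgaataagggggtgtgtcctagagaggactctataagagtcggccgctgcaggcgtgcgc
The Id2 window held 1 E-box, CAGCTG, at position -196 from the start, directly after one of its 2 CCACCC cores. The Id3 window held no CANNTG and 1 GGGTGG. An E-box was present in 66.2% of all 32851 windows of this length in the table and the KLF core in 28.1%, both strands searched. CAGGTG, one of the E-box forms that E proteins bind (17.2% of windows), was in neither window on either strand. The same held for the forkhead core TGTTTAC (3.17%) and the Ikaros core TGGGAA (21.6%). These matches describe letters and not bound sites. Of the 10 genes, 8 had an entry in the table, all but Tcf4 and Ikzf3.

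Each value is a deposited RNA-seq score per gene and sample, whose unit is not stated. In genes with a single transcript the low scores multiplied by exon length fell on multiples of a step, 75.4 to 82.1% of them within 0.2 of a whole number of steps, which is how reads per exon base scaled to library size would behave. Under that reading the libraries held about 17500000 to 19900000 reads, and scores can be compared between genes per exon base. Scores summed to between 604.2 and 637.6 per sample. The targeted gene, Nfkbiz, scored 0.0241 and 0.0226 in control against 0.0127 and 0.0116 in cKO samples (log2 fold change -0.94, standard error 0.096, limma adjusted p = 0.0282). All 6 B cell markers were well above the filter. Their summed scores were 2.40 and 2.68 in control and 2.28 and 2.25 in cKO samples. These sums include Cd79a, the gene at which the Cre of the cKO mice is inserted. Cd79a alone scored 0.667 and 0.743 in control and 0.415 and 0.407 in cKO samples. Markers lower in each cKO than in each control sample were 4 of the 6, Cd79a among them, and 1 was higher in each. Over all genes tested these shares were 30.1% and 28.1%. Whether the share of B cells differed was not tested. Of 12 myeloid markers 4 reached the filter, with summed scores of 0.210 and 0.180 in control and 0.226 and 0.227 in cKO samples, and Elane and S100a9 were listed at 0 throughout. None of 14 T and NK cell markers reached it, with sums of 0.00582 and 0.00566 in control and 0.0112 and 0.00993 in cKO samples, and Gzma was listed at 0. The 6 erythroid markers summed to 0.0134 in control 1 and to at most 0.00263 in the other samples. Of 7 tested plasma cell markers Prdm1 and Derl3 were called lower, against 1.25% of all genes. Both were past the filter only through control scores. Sdc1, past the filter only through cKO scores, had a log2 fold change of 0.77 (limma adjusted p = 0.116). Igj had one of -0.86 (limma adjusted p = 0.130). Of the 7, 3 had log2 fold changes below 0 and 4 above 0.

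All 10 genes reached the filter, a score of 0.005 or more in any of the 4 samples, and were tested by limma on log2(score + 0.0001) among 9727 genes. One of them was called at an adjusted p under 0.05: Id2 was higher in cKO B cells. Over all genes tested, 0.812% were called higher and 1.25% lower. By the ratio of geometric means, Id2 was again the only one of the 10 beyond 2-fold, against 1.15% of all genes above 2-fold and 0.864% below 0.5-fold. Both cKO scores lay above both control scores for 4 of the 10 (28.1% of all genes) and below them for 3 (30.1% of all genes), so groups that do not overlap were about as common in the rest of the transcriptome. Without adjustment, 2 of the 10 were higher and 3 lower at p under 0.05, against 10.8% and 11.5% of all genes. The smallest two-sided p of an exact permutation test at this sample number is 0.33. The median log2 fold change of the 10 genes was 0.08, beside -0.01 over all genes tested.

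**Figure D1:**
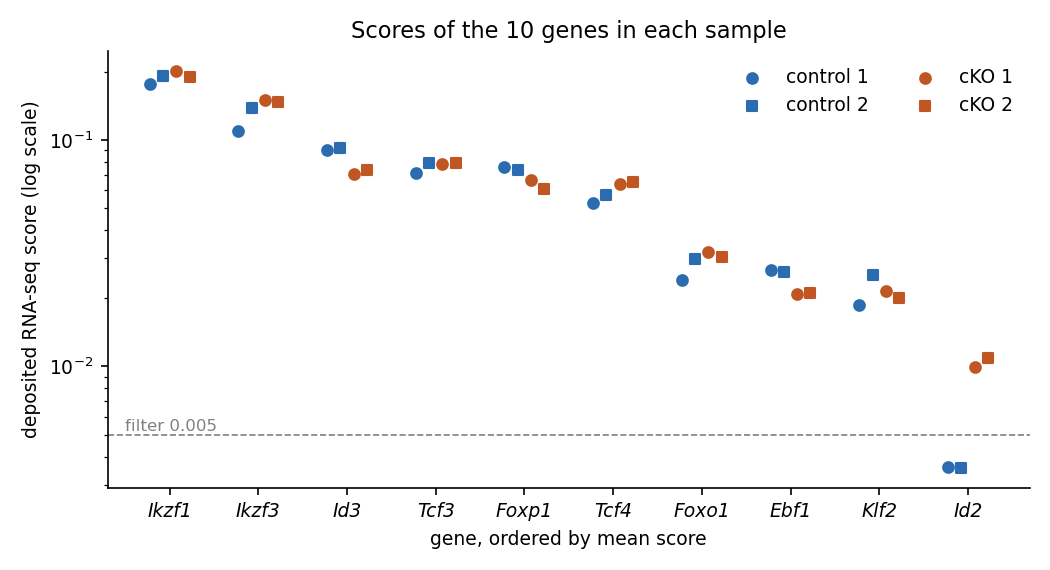
Deposited RNA-seq score (log axis) of the 10 genes in each of the 4 samples, ordered by mean score; blue marks control and orange cKO, circles replicate 1 and squares replicate 2, and the dashed line is the filter of 0.005. Id2, the lowest of the 10, is the only gene whose groups stand far apart: 0.00358 and 0.00356 in control samples lie below the filter, and 0.00989 and 0.0109 in cKO samples above it.

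By level, the 10 genes spanned from Ikzf1, higher than 95.7% of the genes tested, to Id2, at the 14.2 percentile. Ikzf1 and Ikzf3 stood first and second in every sample. Id3, Tcf3, Foxp1 and Tcf4 followed with scores between 0.0524 and 0.0924, and their order changed with the group: in both control samples Id3 was the highest of these 4 and Tcf4 the lowest, whereas in both cKO samples Tcf3 was the highest. Foxo1, Ebf1 and Klf2 lay between 0.0186 and 0.0319 with overlapping ranges. Id2 lay below all others in every sample.

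Id2 encodes an inhibitor of E proteins that is prominent in innate lymphoid, NK and myeloid cells and low in resting B cells. It scored 0.00358 and 0.00356 in the control samples, a mean of 0.00357 ± 0.0000141 (SD, n = 2), against 0.00989 and 0.0109 in the cKO samples, a mean of 0.0104 ± 0.000700 (SD, n = 2). Both cKO scores were well above both control scores, and the samples within each group lay close together. Id2 rose by a ratio of 2.91. On the log2 scale its difference was 1.51 with a standard error of 0.139 and a 95% interval of 1.17 to 1.85 (limma adjusted p = 0.0215), and it ranked 18 of 9727 genes by p. Its control scores were under the filter, so it was tested only because of the group in which it was high. With no filter the adjusted p was 0.161. Without cKO 1 the log2 fold change was 1.58 (adjusted p = 0.136) and without cKO 2 it was 1.45 (adjusted p = 0.0885), settings in which none of the 9727 genes was called in either direction by limma (with unadjusted p under 0.05, 519 lower and 428 higher without cKO 1, and 982 lower and 767 higher without cKO 2). At an exon length of 1270 bases these scores amount to roughly 81 and 82 reads in control and 250 and 242 reads in cKO samples, the fewest of the 10 genes in every sample.

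Myeloid, NK and some T cells can carry Id2 RNA, and in bulk samples more cells of a type cannot be told apart from more RNA per cell. The purification was directed at cells with CD43, CD4 or Ter-119 on their surface, and which other cells remained was not tested. Scores were higher in each cKO than in each control sample for 5 of the 12 myeloid and 7 of the 14 T and NK cell markers and lower in each for none of either list, beside 28.1% of the tested genes higher in each. That share is of genes past the filter, which 4 of the myeloid and none of the T and NK cell markers reached. Of the 4, 2 were higher in each cKO sample, and limma called 0 in either direction. At p under 0.05 before adjustment, 2 were higher and 0 lower, against 10.8% and 11.5% of all genes. The markers named next were chosen after their values were seen. Itgam, the integrin gene that makes up most of the myeloid sum, scored 0.141 and 0.14996 in control and 0.135 and 0.158 in cKO samples (log2 fold change 0.0033, limma adjusted p = 0.988). Ly6c2, a monocyte surface gene, had a log2 fold change of -0.05 (limma adjusted p = 0.968). Its control scores of 0.0347 and 0.00953 differed widely, and the 95% interval ran from -1.40 to 1.31. The lysozyme genes Lyz2 and Lyz1 had 1.39 and 1.46 (limma adjusted p = 0.0961 and 0.0986). Under the filter, Cd14, Csf1r and Emr1 were higher in each cKO sample, at ratios of 2.08, 1.48 and 1.34. Among the T and NK cell markers the ratio of cKO to control was 4.005 for Nkg7, a granule gene of cytotoxic cells, and 0.755 for Cd8a, at scores of at most 0.00175. Their part in the Id2 result was not tested.

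Id3, the other ID gene of these cells, encodes an inhibitor that is induced by antigen receptor signaling and restrains E proteins in follicular B cells. It scored 0.0903 and 0.0924 in control B cells against 0.0706 and 0.0737 in cKO B cells. The groups did not overlap, with Id3 at 0.790 of its control level (log2 fold change -0.34, standard error 0.079, 95% interval -0.53 to -0.15), but the limma adjusted p of 0.101 missed the threshold. Id1 scored at most 0.00078 and Id4 was listed at 0 in all 4 samples. Id3 exceeded Id2 by 25.2 and 25.9 times in control samples and by 7.13 and 6.78 times in cKO samples. Id2 thus made up 3.82 and 3.71% of the summed ID scores in control and 12.3 and 12.7% in cKO samples.

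Tcf3, which encodes E12 and E47, scored 0.0715 and 0.0793 in control and 0.0784 and 0.0791 in cKO samples. The cKO scores lay within the control range, and the 95% interval of the log2 fold change ran from -0.15 to 0.28 around 0.07 (limma adjusted p = 0.681). Tcf4, which encodes E2-2, the E protein also known from plasmacytoid dendritic cells, scored 0.0524 and 0.0572 in control and 0.0638 and 0.0652 in cKO samples. The groups did not overlap, and the log2 difference of 0.24 ± 0.086 (standard error) did not pass the test (limma adjusted p = 0.199). Tcf12, which encodes HEB and is not one of the 10, was added to complete the E proteins and scored 0.0186 and 0.0192 in control and 0.0224 and 0.0214 in cKO samples (log2 fold change 0.21, limma adjusted p = 0.220).

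Summed over Tcf3, Tcf4 and Tcf12, the E protein scores were 0.142 and 0.156 in control and 0.165 and 0.166 in cKO samples. The summed scores of the 4 ID genes were 0.0938 and 0.0960 in control and 0.0806 and 0.0854 in cKO samples. The ratio of the ID sum to the E protein sum was 0.659 and 0.617 in control but 0.490 and 0.515 in cKO samples, and was lower in both cKO samples although Id2 was higher. These sums were chosen after the values were seen and carry no test. They add RNA scores per exon base and do not measure protein.

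**Figure D2:**
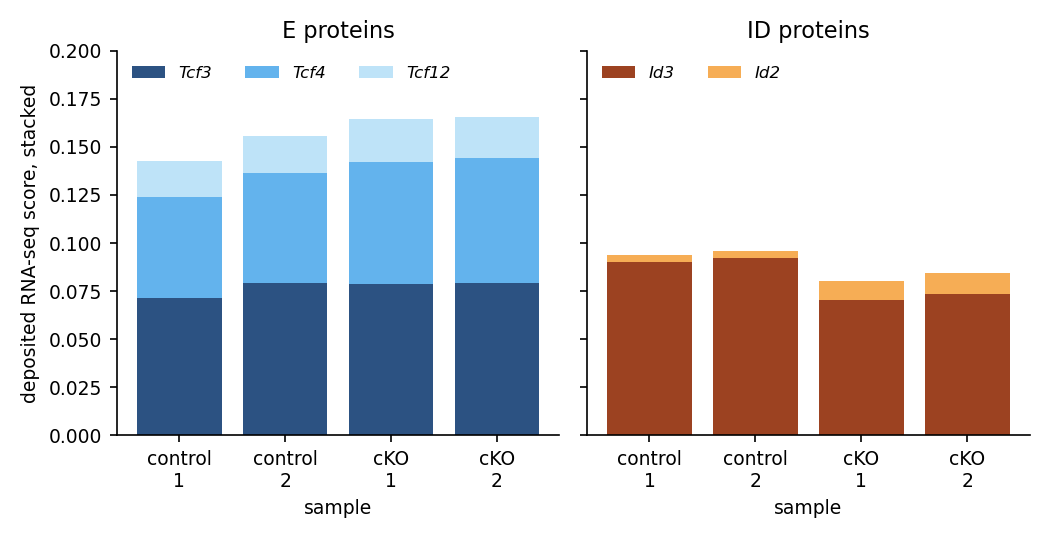
Stacked RNA-seq scores, from 0, of the E protein genes Tcf3, Tcf4 and Tcf12 (left) and the ID genes Id3 and Id2 (right) in each sample. The E protein stack is taller in both cKO samples (0.165 and 0.166) than in control samples, the ID stack is shorter, and the Id2 layer is thicker in the cKO samples.

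Ebf1 encodes a factor that specifies and maintains the B lineage. It scored 0.0268 and 0.0260 in control and 0.0210 and 0.0211 in cKO samples. The samples of each group lay close together and the groups did not overlap, at a ratio of 0.796 and a log2 fold change of -0.33 (standard error 0.081, 95% interval -0.53 to -0.13), but the limma adjusted p was 0.113. Pax5, the partner gene that commits cells to the B lineage, scored 0.115 and 0.117 in control and 0.109 and 0.114 in cKO samples (log2 fold change -0.06, 95% interval -0.25 to 0.14, limma adjusted p = 0.696).

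Ikzf1 scored 0.177 and 0.191 in control and 0.202 and 0.189 in cKO samples. The groups overlapped, with a log2 fold change of 0.09 (95% interval -0.12 to 0.30, limma adjusted p = 0.575). Ikzf3, whose product Aiolos is most abundant in mature B cells, scored 0.109 and 0.138 in control and 0.1502 and 0.147 in cKO samples. Control 1 was the low sample, and the log2 difference of 0.28 ± 0.123 (standard error) did not pass (limma adjusted p = 0.257). Without control 2 it was 0.44 (adjusted p = 0.0415) and without control 1 it was 0.11, so the call for Ikzf3 depended on which control sample was used.

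Foxo1 scored 0.0241 and 0.0297 in control and 0.0319 and 0.0303 in cKO samples. The higher control sample came close to the lower cKO sample without overlap, and the log2 fold change of 0.22 (95% interval -0.08 to 0.52) did not pass the test (limma adjusted p = 0.344). Foxp1, which encodes a forkhead repressor of mature B cells, scored 0.0762 and 0.0739 in control and 0.0667 and 0.0608 in cKO samples, with no overlap and a log2 difference of -0.24 ± 0.087 (standard error) that did not pass (limma adjusted p = 0.202). Klf2 scored 0.0186 and 0.0254 in control and 0.0215 and 0.0200 in cKO samples. Both cKO scores lay inside the control range, and the log2 fold change of -0.07 had a 95% interval from -0.45 to 0.32 (limma adjusted p = 0.817).

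**Figure D3:**
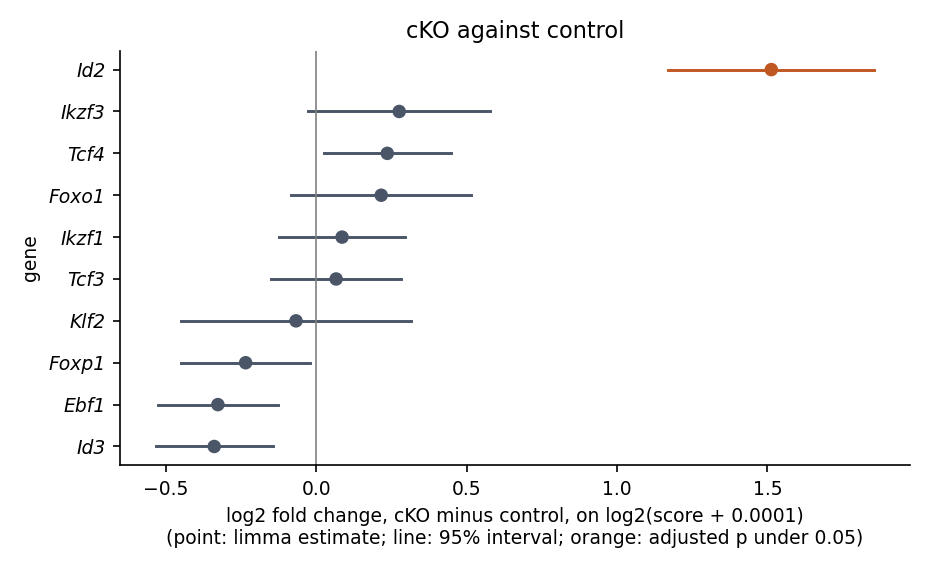
log2 fold change of cKO minus control for the 10 genes, on the log2(score + 0.0001) scale, with limma's 95% interval as a line; orange marks an adjusted p under 0.05. Id2 at 1.51 stands apart from the other 9 genes, which lie between -0.34 and 0.28.

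On NCBIM37, the assembly also called mm9, GENCODE places these genes on 8 chromosomes, with Ebf1, Ikzf1 and Ikzf3 all on chromosome 11. Id2 (Entrez 15902) spans 25778666 to 25780957 on the minus strand of chromosome 12 and has 1 transcript, and Id3 (15903) spans 135699412 to 135701670 on the plus strand of chromosome 4 and has 3. Klf2 (16598) lies on chromosome 8 from 74842932 to 74845555. Tcf3 (21423) spans 79872259 to 79896392 on chromosome 10 with 14 transcripts, and Foxo1 (56458) 52072259 to 52154031 on chromosome 3 with 1. Ikzf1 (22778) has 12 transcripts, Ikzf3 (22780) 4, Foxp1 (108655) 16, Tcf4 (21413) 15 and Ebf1 (13591) 8. A score per gene pools all of a gene's transcripts, so isoforms such as E12 and E47 could not be separated. Exons of Foxp1 overlap those of Eif4e3 and exons of Foxo1 overlap those of RP24-337A16.1 in the annotation, and reads of such neighbours may not be separable. Ebf1 has 2 annotation entries with overlapping exons, and its 8 transcripts are those of 1 entry. None of the 10 genes shared all 4 scores with another gene.

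Of 10 helix-loop-helix partners and LMO2 complex genes, 5 were tested, with a median log2 fold change of 0.16. Of these, 1 was called lower and 0 higher, against 1.25% and 0.812% of all genes. With unadjusted p under 0.05, 1 was lower and 1 higher, against 11.5% and 10.8% of all genes. The gene that fell was Lmo2, which encodes a LIM-only adaptor that joins E protein dimers to LDB1. It scored 0.117 and 0.0958 in control and 0.0495 and 0.0498 in cKO samples, less than in either control sample (ratio 0.469, log2 fold change -1.09, standard error 0.114, limma adjusted p = 0.0282). Its partner Ldb1 scored 0.0624 and 0.0685 in control and 0.0702 and 0.0683 in cKO samples. Lyl1, a helix-loop-helix partner of E proteins, had a log2 fold change of 0.16 and Lmo4 one of 0.21, neither past the test (limma adjusted p = 0.398 and 0.226).

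Of 28 relatives in the EBF, Ikaros, FOXO, FOXP and KLF families, 9 were tested, with a median log2 fold change of 0.03. Of the 9, 1 was called higher and 0 lower, against 0.812% and 1.25% of all genes. With unadjusted p under 0.05, 2 were higher and 0 lower, against 10.8% and 11.5% of all genes. Foxp4, a forkhead gene related to Foxp1, scored 0.0313 and 0.0361 in control and 0.0614 and 0.0598 in cKO samples. It rose by a ratio of 1.80 (log2 fold change 0.85, standard error 0.099, limma adjusted p = 0.0306), while the log2 fold change of Foxp1 was -0.24. The next most abundant relatives were Klf13, Klf6 and Foxo3, with log2 fold changes of -0.18, 0.28 and 0.31 that did not pass (limma adjusted p = 0.340, 0.233 and 0.299).

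Among 23 other transcription factors of the B lineage, 21 were tested, and 1 was called lower and 0 higher, against 1.25% and 0.812% of all genes. With unadjusted p under 0.05, 2 were lower and 5 higher, against 11.5% and 10.8% of all genes. Pou2f2, which encodes the octamer-binding factor OCT2, fell from scores of 0.0640 and 0.0583 in control to 0.0364 and 0.0367 in cKO samples (log2 fold change -0.74, standard error 0.087, limma adjusted p = 0.0306). Pou2af1, the gene of its coactivator OBF-1, scored 0.198 and 0.178 in control and 0.151 and 0.153 in cKO samples, and its log2 difference of -0.30 did not pass (limma adjusted p = 0.137). The IRF family gene Irf8 and the ETS family gene Spib had log2 fold changes of 0.16 and -0.21 (limma adjusted p = 0.283 and 0.263). The highest value of the list, 1.82 for the repressor gene Gfi1, was named after its values were seen; its control scores of 0.00191 and 0.00727 differed widely and its limma adjusted p was 0.168.

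Of 22 target genes of E proteins, EBF1 and PAX5, 17 were tested, with a median log2 fold change of -0.20. Of these, 5 were called lower and 0 higher, against 1.25% and 0.812% of all genes. At p under 0.05 before adjustment, 8 were lower and 3 higher, against 11.5% and 10.8% of all genes. Cd79a, the signaling chain of the antigen receptor, scored 0.667 and 0.743 in control and 0.415 and 0.407 in cKO samples (log2 fold change -0.78, standard error 0.084, limma adjusted p = 0.0294). Mb1-Cre was carried by the cKO mice alone, so for every gene the Cre allele and the loss of Nfkbiz cannot be told apart. For Cd79a, the Cre is also inserted at the gene itself. Vpreb3, a chaperone of the receptor chains, fell by 0.98 on the log2 scale (limma adjusted p = 0.0294), the surface glycoprotein gene Cd24a by 0.66 (0.0306), the low-affinity IgE receptor gene Fcer2a by 0.78 (0.0428) and the inhibitory Fc receptor gene Fcgr2b by 0.59 (0.0428). The call for Fcgr2b was also lost with quantile normalization (adjusted p = 0.0564) and without control 1 (0.0523). Cd79b, the partner of Cd79a, had a log2 difference of 0.28 ± 0.115 (standard error; limma adjusted p = 0.234), with scores of 0.565 and 0.690 in control and 0.789 and 0.724 in cKO samples. The abundant B cell surface genes Ms4a1 and Cd37 had log2 fold changes of -0.16 and 0.04 (limma adjusted p = 0.336 and 0.795). Rag1, Rag2, Dntt, Igll1 and Vpreb1, which belong to B cell precursors, scored at most 0.00099 and were not tested.

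Of 27 FOXO and KLF2 target and quiescence genes, 25 were tested by limma, with a median log2 fold change of 0.08. In either direction 0 were called, against 1.25% of all genes lower and 0.812% higher. With unadjusted p under 0.05, 1 was lower and 4 were higher, against 11.5% and 10.8% of all genes. The most abundant were Btg1, Slfn2 and Btg2, which restrain proliferation or keep lymphocytes quiescent. Btg1 scored 0.318 and 0.413 in control and 0.535 and 0.460 in cKO samples, Slfn2 had 0.131 and 0.125 and then 0.156 and 0.152, and Btg2 had 0.0764 and 0.101 and then 0.148 and 0.130. The groups did not overlap for any of the 3, cKO being higher, as for 28.1% of all genes tested. Their log2 fold changes were 0.45, 0.27 and 0.66, with limma adjusted p of 0.166, 0.143 and 0.100. S1pr1, a KLF2 target that encodes the receptor for exit from lymphoid organs, was named after its values were seen. It scored 0.0218 and 0.0327 in control and 0.0574 and 0.0486 in cKO samples (log2 fold change 0.98, standard error 0.201, limma adjusted p = 0.0793), while Klf2 itself had a log2 fold change of -0.07. Beside these, 12 proliferation markers had a median log2 fold change of -0.28, with both cKO scores below both control scores for 11, and limma called 0 of the 12 (7 lower and 0 higher with unadjusted p under 0.05). The part of a difference in proliferation in any of these values was not tested.

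**Figure D4:**
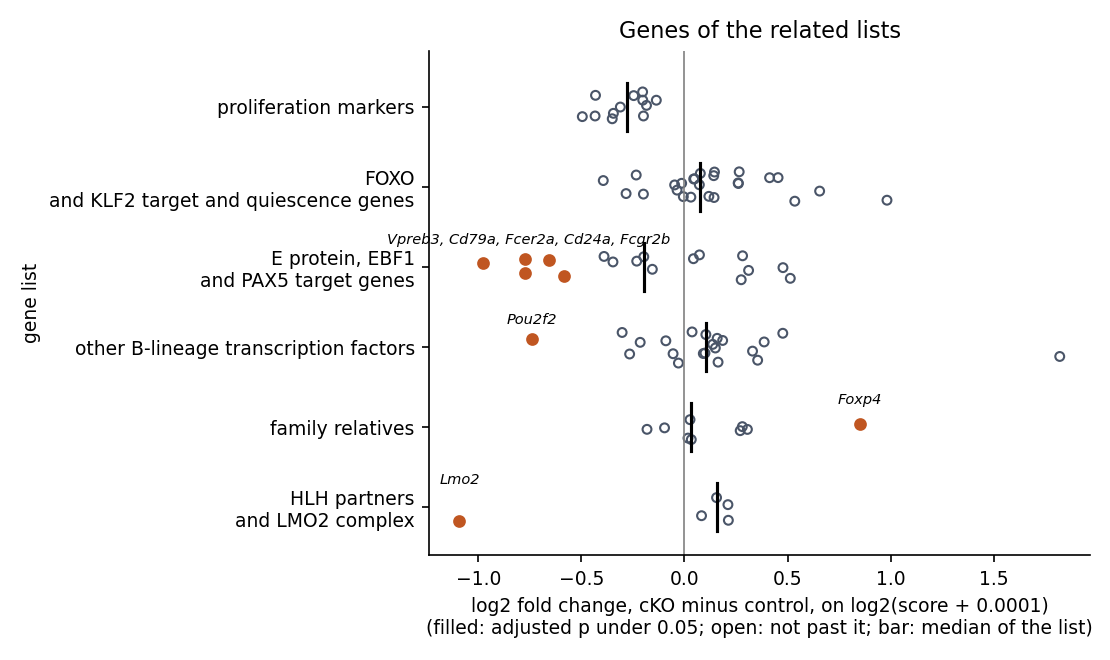
log2 fold change of cKO minus control for each tested gene of 6 lists, on the log2(score + 0.0001) scale; filled orange points passed an adjusted p of 0.05 and are named, open points did not, and black bars are list medians. Named genes lie to the left for Lmo2, Pou2f2 and 5 B-lineage target genes and to the right for Foxp4, and no quiescence gene or proliferation marker is filled.

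Leaving out cKO 1 or cKO 2 left none of the list genes named above called, as for all genes, and the log2 fold changes without 1 sample ranged from -1.24 to -0.95 for Lmo2, from 0.75 to 0.95 for Foxp4, from -0.81 to -0.67 for Pou2f2 and from -0.85 to -0.70 for Cd79a. Leaving out control 2 added higher calls among other B-lineage factors, target genes and quiescence genes, and also over all genes tested. That fit held only 1 control sample.

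The genes whose pattern over the 4 samples was nearest to that of Id2, by Euclidean distance between centred log2 values, were Rab11fip4 (distance 0.295), Mcoln2 (0.296) and Amica1 (0.341). Mcoln2, a cation channel gene of endosomes, scored 0.00525 and 0.00571 in control and 0.0132 and 0.0131 in cKO samples (log2 fold change 1.25, limma adjusted p = 0.0215). Rab11fip4 and Amica1 had log2 fold changes of 1.27 and 1.47 and did not pass the test (limma adjusted p = 0.0743 and 0.0745). With 4 samples in 2 groups, this nearness mostly restates a similar fold change.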

How the data were processed

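RNA-seq was performed on poly(A) RNA of 2 control and 2 cKO B cell samples. The authors mapped 38-base reads to mm9 with TopHat2 (version 2.0 in the submitters' processing notes), kept high-quality reads, removed rRNA and tRNA reads with bedtools and deposited a score per gene for each sample. The step from mapped reads to the score is not given in the sources used here. The scores are not counts, so they were tested on a log scale by limma (version 3.58.1, R 4.3.3). Linear models with a trended empirical Bayes variance were fitted to log2(score + 0.0001) for the 9727 genes that reached 0.005 in any sample, two-sided, with Benjamini-Hochberg adjustment and a threshold of 0.05. A pseudocount understates the change of low genes. Replicate numbers in the labels do not state a shared mouse or culture, so no block was used in the reported values. Alternatives were another pseudocount, other filters, no variance trend, other scalings, a replicate block and leaving out each sample.

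The 10 genes and all lists were chosen with earlier results of these data known. Named genes are the 10, Nfkbiz, the called genes and the 3 most abundant other genes of each list, and the 3 genes nearest to the pattern of the gene with the lowest p. Outside this rule and chosen with values known are Tcf12, Id1 and Id4, Pax5, Gfi1, S1pr1, the B cell precursor genes not tested and the single marker genes named. Spi1, Mzb1 and Adgre1 were matched by Entrez identifier. Gene positions came from the GENCODE annotation of NCBIM37, and approximate reads from the score, the exon length and the step found with Python 3.11.15 and numpy 2.4.6.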

Additional observations from a re-analysis of the deposited data

How the results depend on the processing

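The reported fit called 122 lower and 79 higher of all genes. Unfiltered, limma called 0 and 0 (1538 and 1665 with an unadjusted p under 0.05). Dropping the variance trend gave 22 and 11, and a filter above 0.05 gave 88 lower and 35 higher of only 1933 genes tested. Leaving out a sample gave from 0 to 391 lower and from 0 to 439 higher. With the replicate block, 177 were higher. Same-numbered samples did not deviate together (Pearson correlation -0.145, Spearman -0.291), and the crossed pairing, chosen after seeing the data, gave 230 lower and 212 higher.

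Among the 10 genes, 1 was higher and 0 lower. The replicate block changed no call among them (adjusted p = 0.00387 for Id2). By limma 0 were higher with no filter (2 with an unadjusted p under 0.05) and 0 with a filter above 0.05 (1 before adjustment), which tested 6 of them without Id2, and leaving out a sample gave from 0 to 2. Under the 12 alternatives that kept it, the log2 fold change of Id2 ranged from 1.32 to 1.58 and its adjusted p from 0.00387 to 0.161. Leaving out a sample moved the log2 fold change of Tcf3 between -0.0089 (without control 1) and 0.14, and that of Klf2 between -0.29 and 0.15 (without control 2).

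For the lists, no filter and no variance trend each gave 0 lower in place of 1 among helix-loop-helix partners, 0 higher in place of 1 among family relatives, 0 lower in place of 1 among other B-lineage factors and 0 lower in place of 5 among target genes (8 at an unadjusted p under 0.05). Leaving out a sample gave from 0 to 1, 0 to 1, 0 to 1 and 0 to 5 for these, and from 0 to 3, 0 to 4 and 0 to 3 higher among other B-lineage factors, target genes and quiescence genes. The replicate block called 1 quiescence gene higher and the crossed pairing 2, and the crossed pairing called 1 other B-lineage factor higher. The cause was not tested. Of 241 values of 19 named genes under alternatives, 197 kept their direction and side of the threshold, 41 lost the call, 1 gained it and 2 changed sign. Depth is inferred and limits low scores most.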
